A study of Mus musculus with 4 samples.

Results

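10 genes of nitric oxide, arginine and polyamine metabolism were followed in mouse bone marrow-derived macrophages: Nos2, Gch1, Ass1, Asl, Arg1, Arg2, Odc1, Srm, Sms and Sat1. They were taken by gene symbol, and 10 of 10 were found among the 49315 genes of the count table. Poly(A) RNA of 4 libraries was sequenced. All 4 came from macrophages of Lyz2Cre+ mice, which carry Cre recombinase at Lyz2, a gene active in myeloid cells. The labels name no floxed allele and no age. The cells were grown from marrow in medium with L-cell supernatant, a source of macrophage growth factor, and were polarized on day 7 for 24 hours in serum-free medium. The M1 group (n = 2) received LPS at 100 ng/ml and IFNg (interferon gamma) at 50 ng/ml. The M2 group (n = 2) received IL-4 and IL-13 at 10 ng/ml each. Whether erlotinib, the EGF receptor inhibitor named in the study's title, was present in any of them is not given in the labels. Since unpolarized cells were not analysed here, a gene higher in one group may equally be called lower in the other.

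As background, arginine stands at a branch point in macrophages. The NO synthase Nos2 turns it into nitric oxide and citrulline, with tetrahydrobiopterin (BH4) as a cofactor whose synthesis starts with Gch1, and the enzymes Ass1 and Asl rebuild arginine from citrulline. The arginases Arg1 and Arg2 instead give urea and ornithine. Ornithine feeds the polyamines: Odc1 makes putrescine, Srm spermidine and Sms spermine, while Sat1 acetylates spermidine and spermine for breakdown or export. Nos2 and Arg1 are the textbook markers of classical and alternative mouse macrophage activation.

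Library totals ran from 26806370 to 39506242 counts. Values are normalized read counts (CPM) scaled with TMM factors, a normalization that assumes most genes do not change, and differences are log2 of M1 minus M2 with their standard error (SE) from edgeR's quasi-likelihood test, adjusted over all 14656 tested genes. A gene is called at an adjusted p under 0.05. Nothing in the labels says that the libraries of a group came from separate mice or cultures, and the p-values rest on library-to-library spread that may be purely technical. The summed level of 6 macrophage markers lay between 4313 and 4489 CPM in the 4 libraries, although each single marker differed between the groups: Csf1r and Cd68 were higher in M2, and Adgre1, Itgam, Mertk and Lyz2 were higher in M1. Lyz2, at 25.3 and 27.3 CPM in M1 and 6.51 and 6.88 CPM in M2, is the gene that carries Cre in these mice. Whether Cre there alters its counts was not tested, so it is a weak marker here. The sum of 6 fibroblast markers was 111 and 119 CPM in the M1 libraries and 1137 and 1162 CPM in the M2 libraries, with 4 of 6 (Col1a1, Col1a2, Col3a1 and Pdgfra) higher in M2 and 2 (Dcn and Lum) higher in M1. Endothelial markers summed to 137 and 139 CPM in M1 against 2.71 and 2.93 in M2, nearly all of it Kdr, and dendritic cell markers to 32.8 and 33.6 against 2.52 and 2.11, nearly all of it Xcr1. The neutrophil, T and NK cell, B cell, mast cell and basophil, eosinophil and erythroid lists each stayed under 5 CPM in every library, and Ms4a2 was at 0 in all 4. The part of these cell types in the results below was not tested. In such bulk samples, fewer cells of a type and less RNA per cell cannot be told apart.

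Nos2, Arg2, Ass1, Odc1 and Gch1 were higher in M1, and Arg1, Srm, Sat1 and Sms were higher in M2, while Asl was not called. The differences ran from 9.57 log2 units toward M1 for Nos2 to -4.02 for Arg1. The 5 genes higher in M1 stand beside 37.5% of all tested genes called in that direction, and the 4 higher in M2 beside 39.7%. Over both directions 77.2% of tested genes were called, so the number of calls says little about these enzymes, and their sizes and directions are what follows. By at least 1 log2 unit, 5 were higher in M1 (18.2% of all tested genes) and 3 in M2 (22.5%), together 8 of 10 against 40.7% of all tested genes. The 10 genes were chosen with earlier results of these data known, so this contrast is not a result about them. The libraries of the groups did not overlap in any of the 10, which also held for 88.5% of all tested genes. The median difference of the 10 was 1.05 log2 units, against -0.04 over all tested genes. No gene lay near this median, which falls in the gap between Asl (0.13) and Gch1 (1.98). It is thus not a shift that the 10 genes share.

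**Figure D1:**
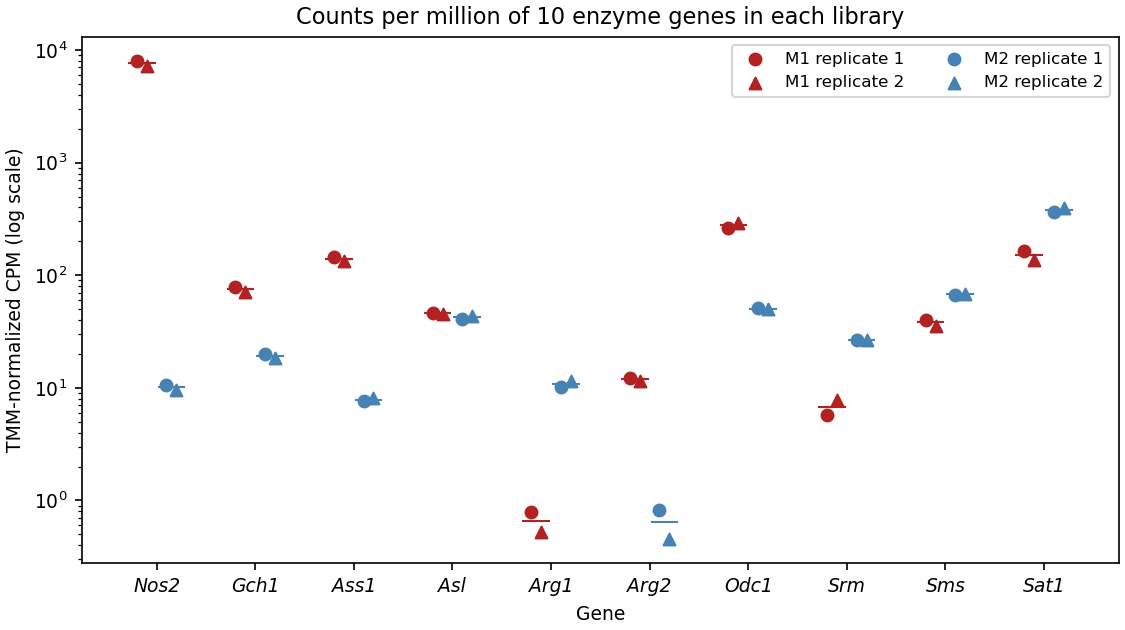
TMM-normalized CPM (log axis) of the 10 enzyme genes in each library, M1 in red and M2 in blue, with circles for replicate 1, triangles for replicate 2 and short lines for group means. Nos2 lies at 7258 and 8035 CPM in M1 and near 10 in M2, Arg1 and Arg2 exchange places between the groups, and Asl lies between 41.0 and 46.6 CPM in all 4 libraries.

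**Figure D2:**
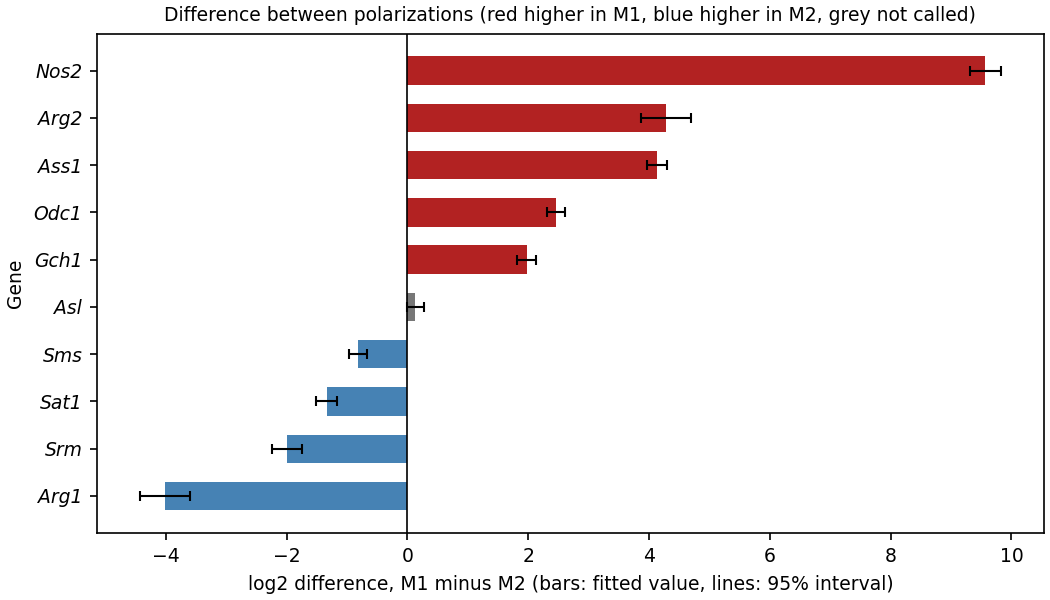
Fitted log2 difference, M1 minus M2, of each enzyme gene (bars) with its 95% interval (lines), in red where called higher in M1, blue where called higher in M2 and grey where not called. Nos2 reaches 9.57 and Arg1 -4.02, and the interval of Asl spans 0.

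To show what lies before the start of genes that moved in opposite directions, the bases upstream of the RefSeq start (GRCm38.p6) are given for Gch1 and Odc1, higher in M1, and for Sat1, higher in M2. Of the 10 genes, 5 had an entry in the promoter table used here: Ass1, Gch1, Odc1, Sat1 and Sms. Nos2, Arg1, Arg2, Asl and Srm had none and were not searched. Each line is a stretch within the 250 bases before the start, on the strand of the gene, without bases that lie in an annotated exon, and capitals mark motif matches.
Gch1, chr14:47189414-47189663, minus strand: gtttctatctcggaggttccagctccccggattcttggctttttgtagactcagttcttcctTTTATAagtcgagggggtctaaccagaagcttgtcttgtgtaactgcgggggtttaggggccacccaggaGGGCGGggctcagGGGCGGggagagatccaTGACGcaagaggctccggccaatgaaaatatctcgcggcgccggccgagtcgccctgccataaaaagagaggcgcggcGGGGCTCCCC
Odc1, chr12:17544623-17544793, plus strand: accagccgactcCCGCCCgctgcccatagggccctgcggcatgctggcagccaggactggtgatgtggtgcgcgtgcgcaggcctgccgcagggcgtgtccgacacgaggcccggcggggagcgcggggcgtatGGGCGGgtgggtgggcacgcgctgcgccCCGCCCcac
Sat1, chrX:155216450-155216699, minus strand: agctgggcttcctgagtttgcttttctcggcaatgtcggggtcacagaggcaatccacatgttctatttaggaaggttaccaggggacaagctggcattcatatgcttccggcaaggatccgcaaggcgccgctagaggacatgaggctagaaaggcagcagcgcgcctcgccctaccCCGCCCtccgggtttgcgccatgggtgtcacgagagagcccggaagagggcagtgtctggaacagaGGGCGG
Motifs were searched on both strands over 250 bases. In Gch1 the capitals are a match to the NF-kappaB site at -10 to -1, which overlaps no other match, a TATA box (TATAAA) on the reverse strand at -188 to -183, a pair of GC boxes (GGGCGG) and the half-site TGACG of the cAMP response element. Among all 32851 promoter windows of this length, 7.25% held the NF-kappaB site, 12.4% TATAAA, 32.7% GGGCGG and 17.8% TGACG. Odc1 had 4 GC boxes, of which the one at -15 to -10 lies outside the printed stretch, as does a TGACG at -79 to -75, and Sat1 had 2 GC boxes. Sms, higher in M2, also held the NF-kappaB site, in both of its windows. Ass1 and Odc1, higher in M1, and Sat1 held no NF-kappaB site. The E-box CACGTG (6.02% of all windows) was matched in Ass1 at -36 to -31 and in Sms at -196 to -191. None of the windows of these 5 genes held the interferon gamma-activated sequence TTCNNNGAA (7.02% of all windows). Nor did any hold its form with a spacer longer by 1 base (5.85%) or the core of the interferon-stimulated response element (2.98%). A match is a description of letters only, and no match says only that these letters are not in this window.

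Nos2, on chromosome 11 at 78920787 to 78960254 (GRCm38, plus strand), is the inducible NO synthase. It had 8035 and 7258 CPM in the M1 libraries and 10.6 and 9.66 CPM in the M2 libraries. The M1 libraries were both high and the M2 libraries both low, a 756-fold difference of means (log2 difference 9.57, SE 0.12, edgeR adjusted p = 1.46e-17). In M1 its transcripts alone took 0.680% of all gene counts in replicate 1 (95% Wilson interval 0.677% to 0.682%) and 0.628% in replicate 2 (0.625% to 0.631%), intervals that cover counting error only. Per kb of exon, a scale on which genes can be set beside each other, Nos2 ranked 21st of the 14656 tested genes in M1 and 8436th in M2. By size of difference it ranked 28th. The M2 level still rested on 331 and 445 counts, and carry-over of reads from the M1 libraries, where Nos2 is this abundant, was not tested.

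Gch1, GTP cyclohydrolase 1 (chromosome 14, 47153895 to 47189413, minus strand), starts BH4 synthesis and is its rate-limiting step. It had 78.8 and 71.5 CPM in M1 and 20.0 and 18.3 CPM in M2, a 3.92-fold difference of means (log2 1.98, SE 0.08, edgeR adjusted p = 2.02e-12). Gch1 was thus higher in M1 together with Nos2, but by far less on the log2 scale. Of 11 further genes on the list for NO synthesis and BH4, 7 were tested, of which 2 were higher in M1 and 5 in M2, with a median log2 difference of -2.18. Over all tested genes 37.5% were called higher in M1 and 39.7% higher in M2, with a median of -0.04. Pts, the synthase after Gch1, was higher in M1 by only 0.38 log2 units (adjusted p = 3.09e-04), a difference that was lost under total-count scaling (-0.06). Spr, sepiapterin reductase, which completes BH4, was at 16.5 and 18.1 CPM in M1 and at 40.4 and 43.9 CPM in M2 (log2 difference -1.29, edgeR adjusted p = 8.39e-10). Qdpr, which regenerates BH4 after use, was at 18.3 and 22.5 CPM in M1 and at 124 and 122 CPM in M2, 6.03-fold higher in M2 by means.

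The list also holds genes that act around NO synthases. Nostrin, which binds the endothelial synthase and takes part in its trafficking, was 9.31-fold higher in M2, and Nosip, another binding partner, was 1.37-fold higher in M1. The call of Nosip was lost under total-count scaling (log2 difference 0.01). Ddah1, which degrades methylated arginines that inhibit NO synthases, was at 0.652 and 0.732 CPM in M1 and at 7.82 and 6.75 CPM in M2, 10.5-fold higher in M2 by means, and its relative Ddah2 was 4.59-fold higher in M2. The other NO synthases were hardly counted: Nos1 had 2 and 0 counts in M1 and 0 and 2 in M2, and Nos3 had 2 and 2 against 4 and 10. Neither passed the filter on low counts, nor did Gchfr, the feedback regulator of Gch1 (7 counts in M1 and 5 in M2 over both libraries), nor Pcbd1.

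Ass1, argininosuccinate synthase (chromosome 2, 31470207 to 31520672, plus strand), takes the first step from citrulline back to arginine. Its levels were 144 and 133 CPM in M1 and 7.66 and 8.10 CPM in M2, a 17.6-fold difference of means (log2 4.13, SE 0.08, edgeR adjusted p = 5.54e-16). Asl, argininosuccinate lyase (chromosome 5, 130011258 to 130029247, minus strand), takes the next step. It had 46.6 and 45.6 CPM in M1 and 41.0 and 43.5 CPM in M2, so the groups lay close together without overlapping. The log2 difference was 0.13 with a 95% interval of -0.02 to 0.27 (edgeR adjusted p = 0.0953). This call depended on scaling: Asl was higher in M1 under RLE scaling (0.15, adjusted p = 0.0484) and higher in M2 under total-count scaling (-0.32, adjusted p = 3.84e-04), with a range of -0.32 to 0.16 over the 12 alternatives. It was also called higher in M1 without M1 replicate 2 (0.14, adjusted p = 0.0387). Per kb of exon, Ass1 was 6.20 and 5.83 times Asl in the M1 libraries and 0.374 and 0.372 times Asl in the M2 libraries, so their order was opposite in the groups.

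The arginases exchanged places. Arg1, the cytosolic form (chromosome 10, 24915221 to 24927484, minus strand), had 0.789 and 0.529 CPM in M1, from 23 and 13 counts, and 10.1 and 11.6 CPM in M2. Both M2 libraries lay above both M1 libraries, 16.5-fold by means (log2 difference -4.02, SE 0.19, edgeR adjusted p = 3.42e-11). Arg2, the mitochondrial form (chromosome 12, 79130777 to 79156301, plus strand), had 12.3 and 11.6 CPM in M1 and 0.830 and 0.456 CPM in M2, from 26 and 21 counts. It was 18.5-fold higher in M1 (log2 4.28, SE 0.19, edgeR adjusted p = 1.71e-11). Exons of Arg2 and of Vti1b, on the opposite strand, share 285 bases, and the library kit does not mark strand, so reads there cannot be assigned by strand. Vti1b had 1893 and 1629 counts in M1 and 2466 and 3683 in M2.

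The sum of the arginases changed far less than either of them. Per kb of exon, Arg1 and Arg2 together reached 8.96 and 8.33 CPM per kb in the M1 libraries and 5.12 and 5.51 in the M2 libraries, 1.63 times as much in M1. This ratio rested on the exon length used: it was 1.13 with the longest annotated transcript of each gene and 1.09 with CPM not divided by length. The Arg2 to Arg1 ratio per kb was 24.3 and 34.1 in M1 and 0.128 and 0.0615 in M2, so Arg2 made up most arginase transcript in M1 and Arg1 most of it in M2. With the longest transcript as length the ratio was 16.1 and 22.6 in M1 and 0.0848 and 0.0408 in M2. The level of Arg1 in M2 was modest, at the 57.5th percentile of tested genes per kb. The Nos2 to Arg1 ratio per kb, the usual contrast of the classical and alternative markers, was 5140 and 6931 in the M1 libraries and 0.527 and 0.422 in the M2 libraries. On the log2 scale the M2 ratios were -0.92 and -1.25, so Arg1 stood above Nos2 per kb there. As raw counts, not divided by length, the Nos2 to Arg1 ratio in M2 was 1.04 in replicate 1 and 0.835 in replicate 2. In M2 replicate 1 the order of Arg1 and Nos2 thus rested on the division by length. With 2 libraries in each group, an exact permutation test of such a ratio cannot go below p = 0.333, so the ratios are given without a test.

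**Figure D3:**
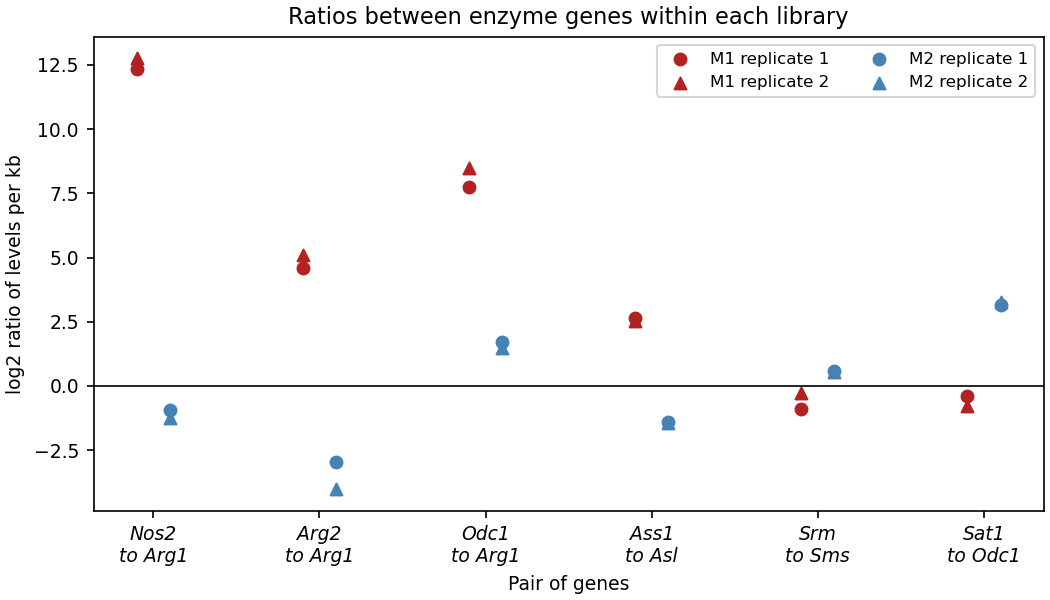
Log2 ratio of levels per kb of exon for 6 pairs of enzyme genes in each library, M1 in red and M2 in blue, circles for replicate 1 and triangles for replicate 2. Each pair separates the groups, most widely Nos2 to Arg1, at 12.33 and 12.76 in M1 against -0.92 and -1.25 in M2. The pairs join genes chosen with earlier results of these data known, and 88.5% of single tested genes also separate the groups. The separation is thus a description only.

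Of the arginine carriers, Slc7a2 was higher in M1, as Nos2 was, and Slc7a1 was not called. Slc7a2, a cationic amino acid transporter known for supplying arginine to Nos2 in macrophages, had 2069 and 2154 CPM in M1 and 153 and 150 CPM in M2, a 14.0-fold difference (log2 3.80, SE 0.08, edgeR adjusted p = 1.34e-15). Slc7a1, the widely expressed carrier of the same family, had 39.2 and 46.7 CPM in M1 and 49.7 and 45.4 CPM in M2, with overlapping groups (log2 -0.15, adjusted p = 0.125). It passed as higher in M2 without M1 replicate 2 (-0.27, adjusted p = 9.47e-05), under total-count (-0.59) and upper-quartile scaling (-0.33), and without the filter on low counts (-0.20). Slc3a2, the heavy chain of several amino acid exchangers, was 1.94-fold higher in M1, at 753 ± 5.39 against 389 ± 2.07 CPM (SD, n = 2 each).

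Of the 13 genes on the list for arginine transport, the urea cycle and the proline branch, 10 were tested: 3 were higher in M1, 5 in M2 and 2 were not called, with a median log2 difference of -0.36. With 77.2% of all tested genes called, this number of calls is near the background and is not a result about the list. Aldh18a1, which makes the shared precursor of proline and ornithine from glutamate, was 2.27-fold higher in M2. Prodh, which starts proline breakdown, was 4.31-fold higher in M2, and Pycr1, a proline-forming reductase, 6.74-fold higher from low levels (0.309 and 0.447 CPM in M1, 2.78 and 2.32 CPM in M2). Its relative Pycrl differed less (log2 difference -0.58, edgeR adjusted p = 1.55e-04). Slc25a15, the mitochondrial ornithine carrier, was 4.04-fold higher in M2. Oat, which converts ornithine toward proline and glutamate, was higher in M1 by only 0.19 log2 units (edgeR adjusted p = 0.0121), a call that was lost without either M2 library, under upper-quartile scaling (0.0018), without the filter (0.13) and in DESeq2 (0.18), and that turned to -0.26 under total-count scaling. The liver-type urea cycle genes were at or near 0: Otc and Nags had no count in any library, which allows up to 0.0232 CPM (3 counts over the 4 libraries together), and Cps1 had 1 count.

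Odc1, ornithine decarboxylase (chromosome 12, 17544794 to 17551505, plus strand), commits ornithine to the polyamines. It had 262 and 292 CPM in M1 and 50.8 and 49.8 CPM in M2, a 5.50-fold difference of means (log2 2.46, SE 0.07, edgeR adjusted p = 6.60e-14). The enzymes after it went the other way. Srm, spermidine synthase (chromosome 4, 148591503 to 148594993, plus strand), had 5.77 and 7.77 CPM in M1 and 26.7 and 26.6 CPM in M2 and was 3.94-fold higher in M2 (log2 -1.99, SE 0.11, edgeR adjusted p = 7.59e-10). The M1 libraries of Srm differed by 0.43 log2 units, within the range of -0.60 to 0.59 that holds 90% of tested genes. Sms, spermine synthase (chromosome X, 157443855 to 157492287, minus strand), had 40.4 and 35.8 CPM in M1 and 66.6 and 68.4 CPM in M2, a smaller 1.77-fold difference (log2 -0.83, SE 0.07, edgeR adjusted p = 3.60e-08). A processed copy, Sms-ps, held 5 to 27 counts a library, so reads counted to it are few beside the 879 to 3153 counts of Sms. Per kb, the Srm to Sms ratio was 0.537 and 0.817 in the M1 libraries and 1.51 and 1.46 in the M2 libraries.

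Sat1, spermidine and spermine acetyltransferase (chromosome X, 155213132 to 155216449, minus strand), had 163 and 138 CPM in M1 and 367 and 392 CPM in M2. Both M2 libraries were high, 2.53-fold above M1 by means (log2 -1.34, SE 0.08, edgeR adjusted p = 1.60e-09). Per kb of exon it led the 10 genes in M2 and ranked 274th of all tested genes there. With the union of annotated exons as length, the order of Sat1 and Odc1 was opposite in the groups. The Sat1 to Odc1 ratio per kb was 0.765 and 0.580 in M1 and 8.88 and 9.68 in M2. In M1 this order rested on the exon length used. With the longest transcript the M1 means lay closer, at 111 CPM per kb for Sat1 and 125 for Odc1. Their order in single M1 libraries is thus not firm.

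Among genes that control, break down and use polyamines, Smox was far higher in M1 and Paox in M2. Of 18 on the list, 17 were tested: 3 were higher in M1, 9 in M2 and 5 were not called, with a median log2 difference of -0.43. The share of calls, 12 of 17, lay near the 77.2% of all tested genes. Smox, spermine oxidase, which turns spermine directly back to spermidine, had 329 and 283 CPM in M1 and 21.5 and 22.3 CPM in M2, a 14.0-fold difference (log2 3.80, SE 0.08, edgeR adjusted p = 1.03e-14). Paox, the peroxisomal oxidase that acts on the acetylated products of Sat1, was the opposite, at 4.26 and 2.85 CPM in M1 and 19.7 and 19.7 CPM in M2 (log2 -2.45, SE 0.14, edgeR adjusted p = 6.01e-10). Sat2, related to Sat1, was higher in M2 on very few M1 counts (1 and 6). Atp13a2, a lysosomal polyamine exporter, was 3.45-fold higher in M2, at 83.6 ± 9.78 against 288 ± 6.01 CPM (SD, n = 2 each).

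Amd1, Mat2a and Mtap, which serve the aminopropyl supply of Srm and Sms, were higher in M2, as those were. Amd1, which makes decarboxylated S-adenosylmethionine for both synthases, was 1.39-fold higher in M2 (log2 -0.48, adjusted p = 8.28e-06). It is near-identical to Amd2, which was not called and held 6 to 18 counts a library, so the split of reads between them is uncertain. Mat2a, which makes S-adenosylmethionine, was also 1.39-fold higher in M2, and Mtap, which recycles the by-product of both synthases, was 2.37-fold higher. The regulatory subunit Mat2b was not called (-0.10, adjusted p = 0.144), but passed as higher in M2 under upper-quartile (-0.29) and total-count scaling (-0.55).

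Several genes on the list regulate Odc1. Oaz1, antizyme 1, which sends Odc1 protein to the proteasome, had 232 and 228 CPM in M1 and 238 and 261 CPM in M2 and was not called (log2 -0.12, adjusted p = 0.114). It passed as higher in M2 without either M1 library, under total-count and upper-quartile scaling, and without the filter. Oaz2 was higher in M1 by 0.27 log2 units (edgeR adjusted p = 0.00559), a call that was lost without M2 replicate 2, under upper-quartile scaling (0.081) and in DESeq2 (0.26), and that turned to -0.18 under total-count scaling. Azin1, the antizyme inhibitor that spares Odc1, was 1.32-fold higher in M1 (log2 0.40, adjusted p = 3.09e-05) and turned to -0.05 under total-count scaling, while Azin2 was 3.95-fold higher in M2. Eif5a, the translation factor that carries hypusine, a residue made from spermidine, was 1.32-fold higher in M2 and Eif5a2 was 2.35-fold higher. The hypusine-forming enzymes Dhps and Dohh were not called (log2 0.14 and 0.00), but both passed as higher in M2 under total-count scaling (-0.31 and -0.44). Under upper-quartile scaling Dohh also passed as higher in M2 (-0.18), and without M1 replicate 1 Dhps passed as higher in M1 (0.18).

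**Figure D4:**
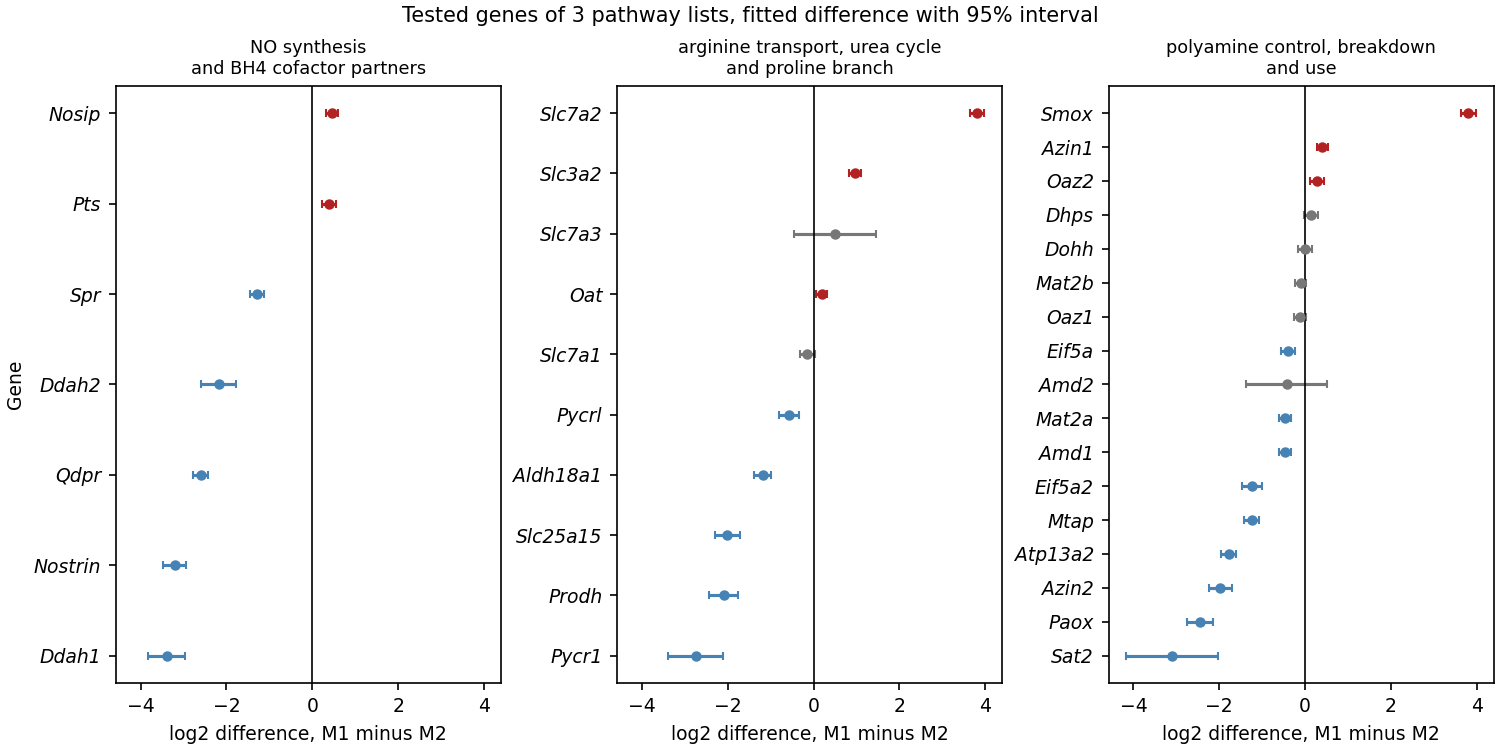
Fitted log2 difference, M1 minus M2, with its 95% interval, for the tested genes of the 3 further lists (NO synthesis and BH4, arginine and proline, polyamines), in red where called higher in M1, blue where called higher in M2 and grey where not called. Slc7a2 and Smox, both at 3.80, stand apart on the M1 side of their lists.

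On the scale per kb of exon, which allows levels of different genes to be compared, the order of the 10 enzymes was different in the groups. In M1 it was led by Nos2 (1733 ± 125 CPM per kb), Odc1 (81.2 ± 6.27), Ass1 (57.4 ± 3.39) and Sat1 (54.2 ± 6.45), and ended with Srm (4.23 ± 0.886) and Arg1 (0.296 ± 0.0827; SD, n = 2 throughout). Between them lay Gch1 at 12.0 ± 0.822, Asl at 9.55 ± 0.153, Arg2 at 8.35 ± 0.364 and Sms at 6.33 ± 0.542 CPM per kb. Ass1 and Sat1 overlapped there, and the other neighbours in the order did not. In M2 the order was Sat1 (137 ± 6.36), Srm (16.7 ± 0.0376), Odc1 (14.8 ± 0.217), Sms (11.2 ± 0.218) and Asl (8.74 ± 0.372), followed by Arg1 (4.87 ± 0.460), Ass1 (3.26 ± 0.127), Gch1 (3.07 ± 0.195), Nos2 (2.29 ± 0.145) and Arg2 (0.450 ± 0.185). Ass1 and Gch1 overlapped in M2. These levels rest on the exon length used: with the longest transcript of each gene Sat1 was at 281 CPM per kb in M2, and Odc1 (22.8) stood above Srm (19.9) there. The same change put Sat1 (111) above Ass1 (81.7) and Sms (10.2) above Arg2 (8.35) in M1, and Gch1 (5.47) above Ass1 (4.65) in M2. By exon union, the 3 polyamine synthesis genes in M2 lay within 11.2 to 16.7 CPM per kb, whereas in M1 they spread from 4.23 to 81.2.

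**Figure D5:**
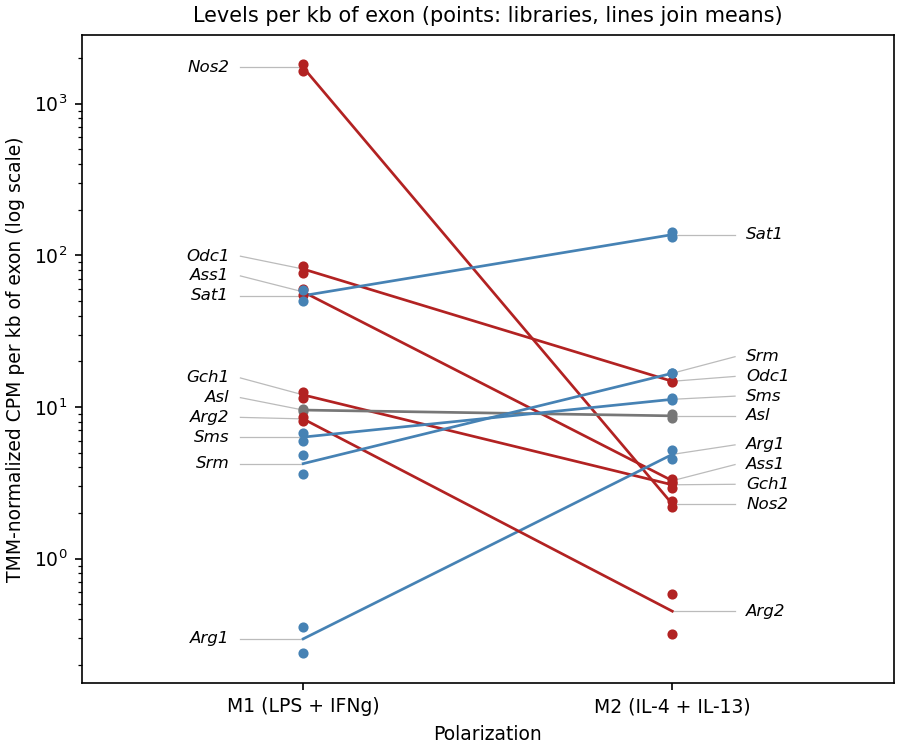
TMM-normalized CPM per kb of exon (log axis) of the 10 enzyme genes in M1 and M2, with a point for each library and lines joining the group means, in red where called higher in M1, blue where called higher in M2 and grey for Asl. Nos2 goes from the highest level in M1 (1733) to the ninth place in M2 (2.29), and Arg1 from the last place in M1 to the sixth in M2.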

How the data were processed

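Read counts per gene, whole numbers with no normalization, were deposited by the authors for the 4 libraries. The submitters' processing notes name Subread 1.5.2 with featureCounts, STAR 2.5.2b, Trimmomatic 0.36, DESeq and DESeq2, and the build GRCm38, without roles or settings. Per the labels' protocols, mRNA was enriched with oligo(dT), the kit does not mark strand and reads were paired. The authors' comparison table was not used here, since its printed symbols are said to be shifted in part, which was not checked here. Gene IDs were matched to GENCODE vM21: 48970 of 49315 had a symbol, and Pycr3 was found as Pycrl through RefSeq synonyms.

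Polarization labels gave the groups, and replicate numbers follow accession order. The fit used edgeR 4.0.16 in R 4.3.3 after filterByExpr (at least 10 counts, 15 in total), with TMM (factors 0.846 and 0.866 for M1, 1.17 and 1.17 for M2), a robust quasi-likelihood fit and a two-sided F test, with Benjamini-Hochberg adjustment over 14656 genes. The SE is the absolute log2 difference divided by the square root of F, and folds are ratios of mean CPM. Levels per kb divide CPM by the union of annotated exons. The fit was tested on simulated data in which few genes changed, equally in both directions. Most genes were called in the real data, so that simulation cannot test the scaling. Alternatives were RLE, upper-quartile and total-count scaling, no filter, at least 5 CPM in 2 libraries, DESeq2 1.42.0, limma-voom (limma 3.58.1), a non-robust fit, each library left out, and the longest transcript as length.

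The enzymes and lists were chosen with earlier results of these data known. All 10 enzymes and any tested gene of the 3 lists could be named, and some genes of these lists are not reported here. Protein sequences were not used here.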

Additional observations from a re-analysis of the deposited data

How the results depend on the processing

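The 9 called enzymes kept their direction and their call under all 12 alternatives run for them, 4 of which leave out a library. There the spread comes from the group that keeps 2 libraries and from the trend over all genes, and the lone library is assumed to vary like the other group. Of 120 re-computed differences of the 10 enzymes, 3 gained a call, all of Asl: without M1 replicate 2 (0.14), under RLE scaling (0.15) and, with the opposite sign, under total-count scaling (-0.32). Asl also changed sign, uncalled, under upper-quartile scaling (-0.059). Scaling mattered because the median of all tested genes was -0.04 log2 units under TMM, -0.22 by upper quartiles and -0.48 by total counts, so small differences are relative to TMM. Under total-count scaling 3342 genes were higher in M1 against 5495, or 28.1% of calls against 48.6%. The same scaling left 0 genes called higher in M1 by edgeR on the NO and BH4 list, 0 at an unadjusted p under 0.05, against 2 under TMM or by DESeq2: it put Pts at -0.065 and Nosip at 0.0064 log2. It left 1 higher in M1 and 14 higher in M2 on the polyamine list (3 and 9). Of 404 re-computed differences of list genes, 309 kept their call and 67 stayed uncalled, 11 lost the call, 15 gained one and 2 were called in the opposite direction (Oat and Oaz2). Counted apart from calls, 14 changed sign. Those that changed sign under total-count scaling were Pts (-0.065), Oat (-0.26), Oaz2 (-0.18), Azin1 (-0.048), Dhps (-0.31) and Dohh (-0.44), and under upper-quartile scaling Dhps (-0.043) and Dohh (-0.18). Dohh, at 0.00, also did so without the filter (-0.054), at 5 CPM in 2 libraries (-0.018) and in DESeq2 (-0.0016), and ranged from -0.080 to 0.098 with single libraries left out. Slc7a3, with 8 to 22 counts a library, ranged from -0.26 without M1 replicate 1 to 0.95 without M1 replicate 2. The summed arginase level, M1 over M2, was 1.63 per kb of exon, 1.13 with the longest transcript and 1.09 in CPM, the last chosen after seeing the data. With the longest transcript 86 of 90 pairs of enzymes kept their order of level within a group, and 4 exchanged places. The cause was not tested for any of these, apart from what the scaling or length itself sets. Arg1 in M1 and Arg2 in M2 rest on 13 to 26 counts a library, which limits their folds. No paired analysis was possible because the labels give no replicate numbers.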
